A study of Mus musculus with 9 samples.

Results

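Skeletal muscle contractile genes encode the proteins with which striated muscle fibres contract, together with the proteins that anchor, trigger and fuel them. The 39 genes described here were listed by symbol, and a row of the array table was taken where its platform annotation gave exactly 1 symbol, equal to that of a listed gene. All 39 were measured, each by a single probe set, among 19938 genes with 1 symbol. RNA was extracted from whole ear skin of female C57BL/6 mice aged 7 to 9 weeks and hybridised to Affymetrix Mouse Gene 1.0 ST arrays, 3 arrays in each of 3 groups. In the anisomycin group, the antibiotic anisomycin, which stops translation and switches on stress kinases, was put on both faces of the ear every day at 2 mg/ml in 99.5% ethanol, 10 µl per face. In the imiquimod group, 10 mg of a cream with 5% imiquimod, a Toll-like receptor agonist with which psoriasis-like skin inflammation is modelled, was put on both faces of the ear every day. Both agents were given on 5 consecutive days. The vehicle group was the control, and its composition and number of days are not stated in the labels, so ethanol, cream base and duration cannot be told apart from the agents. No genetic change is named for any group. The labels do not say that each array held the RNA of a separate mouse, and where it did not, the p-values cover no spread between animals.

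A muscle fibre contracts when myosin heavy chains of the thick filament pull on actin of the thin filament. Calcium released from the sarcoplasmic reticulum binds troponin, which moves tropomyosin and frees actin for myosin, and calcium pumps end the contraction. Fast and slow fibres use different isoforms of many of these proteins. The mouse outer ear holds striated muscle beside skin, cartilage and fat, so whole ear RNA carries transcripts of muscle fibres. Values are RMA expression values on a log2 scale, where a difference of 1 is 2-fold, and they are not compared between genes, because probe sets differ in brightness. In these arrays the listed genes read from 5.17 to 12.23, and the dimmest 10% of all genes had a mean of 3.58.

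Both treatments went with lower levels of almost the whole list. Against vehicle, 38 of the 39 genes were lower and 0 higher in anisomycin ears (limma, Benjamini-Hochberg adjusted p under 0.05), where 23.3% of all genes tested were called lower and 22.3% higher. The median difference was -1.48 on the log2 scale, beside -0.01 for all genes. In imiquimod ears 39 of 39 genes were called lower and 0 higher against the same vehicle arrays, where 22.4% of all genes were called lower and 20.4% higher. Their median was -1.55, beside -0.03 for all genes. Trim63, which encodes a ubiquitin ligase of muscle atrophy, was the exception with anisomycin and lay close to the threshold with imiquimod. The other 38 genes were 1.61- to 6.43-fold lower in anisomycin ears (adjusted p from 1.82e-06 to 0.00531) and 1.602- to 6.36-fold lower in imiquimod ears (adjusted p from 3.56e-06 to 0.00517). For these 38 genes every one of the 6 treated arrays lay below every vehicle array. All anisomycin arrays lay below all vehicle arrays for 26.4% of all genes, and all imiquimod arrays for 27.4%, so both held for at most 26.4%. At least a 2-fold fall was called for 28 genes with anisomycin, where 3.45% of all genes had one, and for 37 with imiquimod, where 2.6% had one. In whole ear RNA, fewer muscle fibres, less of these transcripts in each fibre and a larger share of RNA from other cells cannot be told apart.

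**Figure D1:**
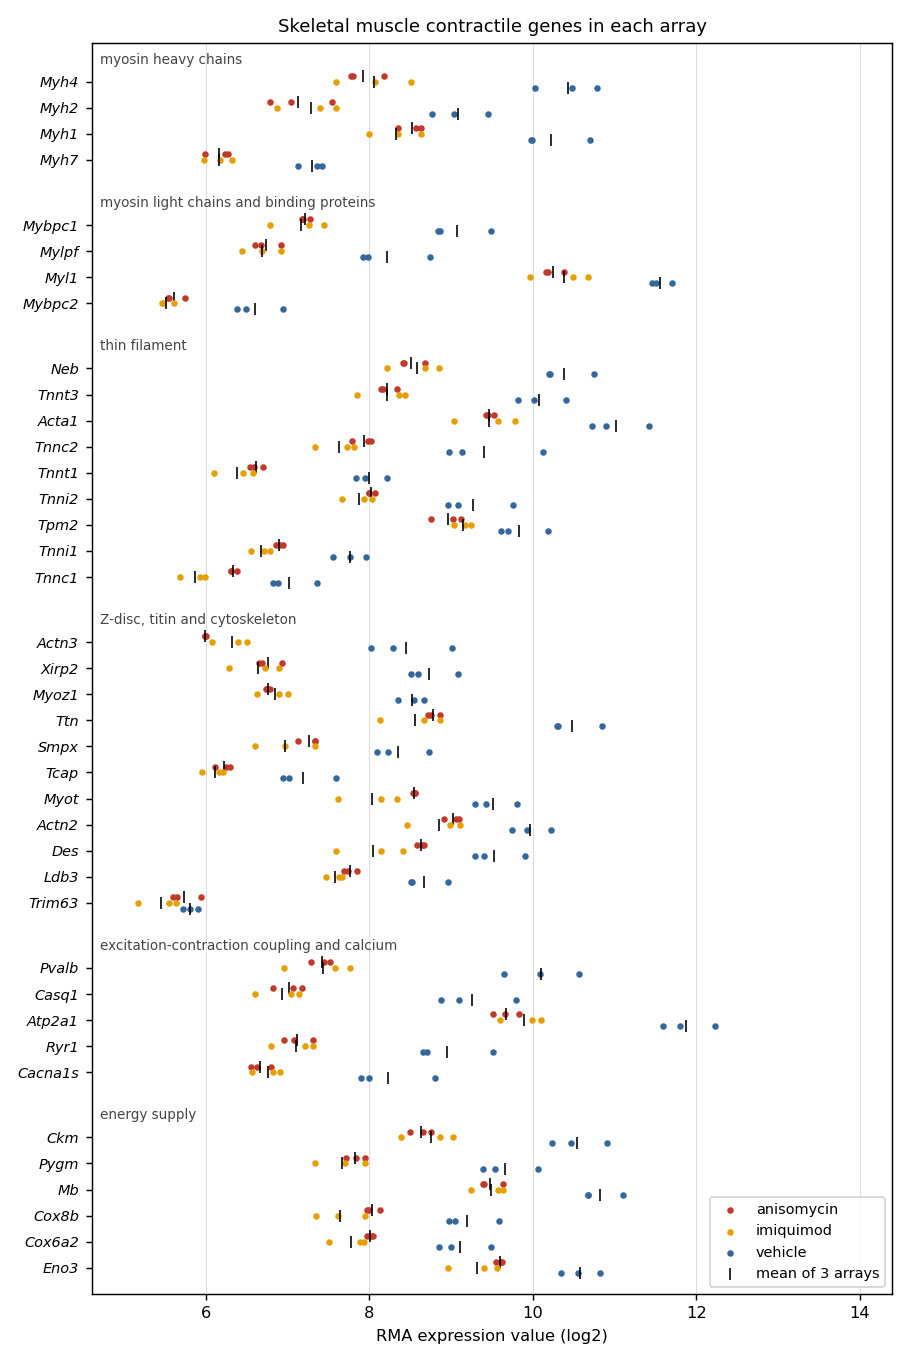
RMA expression value (log2, horizontal axis) of the 39 genes in each of the 9 arrays, grouped by role. Points are arrays and black ticks are means of 3 arrays. Vehicle points lie to the right of all treated points for every gene except Trim63, whose 3 groups lie within 5.17 to 5.94.

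Promoter windows are shown for 4 genes that mark the range of the results. Myh4 had the second largest fall with both treatments, Acta1 encodes the actin of the skeletal thin filament, Tnnc1 was the gene called between the treatments, and Trim63 was the gene not called with anisomycin. Each sequence is the 250 bases upstream of the annotated start, read 5′ to 3′ on the strand of the gene, from the RefSeq promoter table for GRCm38.p6. Myh4 lies at chr11:67237562-67237811 on the plus strand, Acta1 at chr8:123894776-123895025 on the minus strand, Tnnc1 at chr14:31208062-31208311 on the plus strand and Trim63 at chr4:134314870-134315119 on the plus strand. Capitals mark CAGCTG, the E-box core bound by MyoD-type factors, the TATA box TATAAA, and matches to a MEF2 site and to a CArG box, which serum response factor binds.
Myh4: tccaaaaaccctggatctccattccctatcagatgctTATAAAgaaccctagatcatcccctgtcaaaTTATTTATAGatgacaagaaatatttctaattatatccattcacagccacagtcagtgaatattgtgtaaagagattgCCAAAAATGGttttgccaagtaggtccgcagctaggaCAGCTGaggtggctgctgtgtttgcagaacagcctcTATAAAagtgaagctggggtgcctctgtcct
Acta1: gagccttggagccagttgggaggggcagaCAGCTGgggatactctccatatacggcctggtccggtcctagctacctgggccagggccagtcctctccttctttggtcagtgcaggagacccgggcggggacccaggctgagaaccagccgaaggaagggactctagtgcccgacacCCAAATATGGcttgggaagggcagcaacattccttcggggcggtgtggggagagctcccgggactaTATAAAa
Tnnc1: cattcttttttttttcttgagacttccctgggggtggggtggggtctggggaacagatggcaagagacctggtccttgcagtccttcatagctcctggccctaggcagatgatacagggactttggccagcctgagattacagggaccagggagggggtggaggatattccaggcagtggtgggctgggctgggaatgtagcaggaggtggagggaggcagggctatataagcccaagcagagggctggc
Trim63: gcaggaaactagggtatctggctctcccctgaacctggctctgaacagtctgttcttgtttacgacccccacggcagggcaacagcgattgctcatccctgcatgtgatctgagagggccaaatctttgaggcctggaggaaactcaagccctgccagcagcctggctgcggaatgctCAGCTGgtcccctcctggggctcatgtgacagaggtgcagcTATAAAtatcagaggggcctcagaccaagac
The Myh4 window holds CAGCTG 67 bases before the start, a MEF2 match at 182, a CArG match at 104 and TATAAA at 213 and at 31. Its MEF2 match also contains TATAAA read on the opposite strand, which is not counted. The Acta1 window holds CAGCTG at 221, a CArG match at 73 and TATAAA at 7. The Trim63 window holds CAGCTG at 72 and TATAAA at 31, as close to the start as in Myh4. None of these 4 letter patterns was found in the Tnnc1 window. Near its end it holds the similar letters tatataag, which the exact pattern TATAAA does not match, so the search does not show that a TATA box is absent.

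Windows were available for 31 of the 39 genes. TATAAA was searched on the strand of the gene alone and the other motifs on both strands. Over the same 250 bases, CAGCTG was in 15 of the 31 windows (48.4%), beside 12.7% of 27025 windows of all genes. The wider E-box CANNTG, which includes CAGCTG, was in 25 (80.65%), beside 66.05%. TATAAA was in 5 (16.1%), beside 8.13%, and the MEF2 site in 5 (16.1%), beside 3.03%. The CArG box was in 3 (9.68%), beside 1.41%. A match describes letters in this window and is not a bound site.

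The 4 myosin heavy chain genes, which encode the motor of the thick filament, all fell with both treatments, with medians of -1.83 for anisomycin and -1.85 for imiquimod. Myh4, the motor of the fastest glycolytic fibres, read 7.77, 7.80 and 8.17 in anisomycin ears and 8.07, 8.51 and 7.59 in imiquimod ears, against 10.48, 10.79 and 10.03 in vehicle ears. All 6 treated arrays lay below the vehicle arrays, and the treated groups overlapped each other. The change was -2.52 with anisomycin (SE 0.25, 5.72-fold lower, adjusted p = 3.01e-05) and -2.37 with imiquimod (5.18-fold lower, adjusted p = 5.68e-05). Myh7, the motor of slow fibres, had 6.23, 5.98 and 6.27 in anisomycin ears and 6.32, 6.17 and 5.97 in imiquimod ears, against 7.42, 7.35 and 7.13 in vehicle ears. It changed by -1.14 with each treatment (SE 0.11), the smallest change of the 4. Myh1 changed by -1.70 and -1.90 with anisomycin and imiquimod, and Myh2, the motor of fast oxidative fibres, by -1.97 and -1.80. Myh1, Myh2 and Myh4 lie together on chromosome 11 and resemble each other in sequence, so their probe sets can share signal and single values are uncertain.

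Light chains and binding proteins sit on the myosin filament. All 4 listed genes fell, with medians of -1.40 for anisomycin and -1.36 for imiquimod. Mybpc1, the slow-type myosin binding protein, read 7.18, 7.17 and 7.27 in anisomycin ears and 7.26, 7.44 and 6.79 in imiquimod ears, against 8.84, 9.49 and 8.87 in vehicle ears. Its changes of -1.86 and -1.90 were the largest of this group, and the treated arrays again lay below all vehicle arrays. Mylpf, the fast regulatory light chain, changed by -1.48 with anisomycin and -1.54 with imiquimod, and the fast essential light chain Myl1 by -1.31 and -1.18. Mybpc2, the fast-type binding protein, changed by -0.99 and -1.09.

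Thin filament genes numbered 9, and all 9 fell with each treatment, with medians of -1.39 for anisomycin and -1.55 for imiquimod. Skeletal actin, Acta1, read 9.42, 9.45 and 9.52 in anisomycin ears and 9.57, 9.78 and 9.04 in imiquimod ears, against 10.90, 11.42 and 10.72 in vehicle ears. It was 2.92-fold lower with anisomycin (-1.55, SE 0.21, adjusted p = 0.000206) and 2.93-fold lower with imiquimod (adjusted p = 0.000244). Actin genes resemble each other closely, so the Acta1 probe set can share signal with other actins. Nebulin, Neb, which spans the thin filament, changed by -1.88 and -1.81, and the fast troponin T gene Tnnt3 by -1.86 with each treatment. Other fast troponin genes changed by -1.48 and -1.78 (Tnnc2) and by -1.24 and -1.39 (Tnni2), with anisomycin and imiquimod in that order. Slow troponin genes gave -1.39 and -1.62 for Tnnt1 and -0.86 and -1.08 for Tnni1.

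Of the thin filament genes, Tnnc1 had the smallest fall with anisomycin and Tpm2 with imiquimod. Tnnc1, troponin C of slow and cardiac muscle, read 6.38, 6.31 and 6.30 in anisomycin ears and 5.92, 5.98 and 5.68 in imiquimod ears, against 6.88, 7.35 and 6.82 in vehicle ears. The 3 groups did not overlap, with anisomycin between imiquimod and vehicle. It changed by -0.69 with anisomycin (SE 0.13, adjusted p = 0.00217) and by -1.16 with imiquimod (adjusted p = 0.000109). Tpm2, beta-tropomyosin, which smooth muscle and fibroblasts make as well, read 8.75, 9.02 and 9.12 in anisomycin ears and 9.17, 9.25 and 9.03 in imiquimod ears, against 9.70, 10.18 and 9.60 in vehicle ears. Its change of -0.68 with imiquimod was the smallest after that of Trim63, and with anisomycin it changed by -0.87.

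Proteins of the Z-disc, titin and the muscle cytoskeleton anchor the filaments. Of these 11 genes, 10 fell with anisomycin (median -0.96) and 11 with imiquimod (median -1.48). Actn3, the alpha-actinin of fast fibres, read 5.99, 5.98 and 6.00 in anisomycin ears and 6.39, 6.50 and 6.07 in imiquimod ears, against 8.29, 9.01 and 8.02 in vehicle ears. It was 5.47-fold lower with anisomycin (-2.45, SE 0.22, adjusted p = 1.60e-05) and 4.35-fold lower with imiquimod (adjusted p = 5.03e-05). Actn2, the alpha-actinin of all striated fibres, changed by -0.94 and -1.11. Myoz1, a Z-disc protein of fast fibres, had the smallest adjusted p of the list with both treatments, with changes of -1.77 (SE 0.11) and -1.68. Xirp2, an actin-binding repeat protein, changed by -1.98 with anisomycin and -2.10 with imiquimod, and the giant spring protein titin, Ttn, by -1.71 and -1.93.

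The other 5 anchoring genes changed by between -1.48 and -0.90. Desmin, Des, the intermediate filament of muscle, read 8.64, 8.66 and 8.58 in anisomycin ears and 8.14, 8.41 and 7.59 in imiquimod ears, against 9.40, 9.90 and 9.29 in vehicle ears. Its 3 groups did not overlap, and it changed by -0.90 (SE 0.21) with anisomycin and -1.48 with imiquimod. Myotilin, Myot, a Z-disc protein, changed by -0.96 and -1.48, and Ldb3, another Z-disc protein, by -0.90 and -1.08. The titin cap gene Tcap changed by -0.96 with anisomycin and -1.08 with imiquimod. Smpx, a small protein of the muscle cytoskeleton, gave -1.08 and -1.38.

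Trim63 stood apart from the rest of the list. It read 5.94, 5.65 and 5.59 in anisomycin ears and 5.63, 5.17 and 5.55 in imiquimod ears, against 5.72, 5.90 and 5.80 in vehicle ears. The anisomycin arrays overlapped the vehicle arrays, and the imiquimod arrays lay just below them. The change with anisomycin was -0.08 (SE 0.13, 95% interval -0.37 to 0.21, adjusted p = 0.665). With imiquimod it was -0.36 (adjusted p = 0.0495), a call lost in 15 of 21 other settings, where the adjusted p reached 0.161. Those settings include leaving out imiquimod replicate 2 (-0.22, adjusted p = 0.161), imiquimod replicate 3 (0.0639), anisomycin replicate 2 (0.0684), anisomycin replicate 3 (0.0520), and vehicle replicate 1, 2 or 3 (0.0660, 0.138 and 0.103). Whether its signal was above background was not tested.

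Calcium handling genes had the lowest medians of the roles. All 5 were lower by at least 2-fold with each treatment, with medians of -2.21 for anisomycin and -1.98 for imiquimod. Parvalbumin, Pvalb, the calcium buffer of fast fibres, read 7.44, 7.52 and 7.29 in anisomycin ears and 7.58, 7.76 and 6.95 in imiquimod ears, against 10.08, 10.56 and 9.65 in vehicle ears. It fell more than any other listed gene, by 2.68 on the log2 scale with anisomycin (SE 0.25, 6.43-fold lower, adjusted p = 1.99e-05) and by 2.67 with imiquimod (6.36-fold lower, adjusted p = 2.76e-05). Atp2a1, the calcium pump of fast fibres, read 9.51, 9.66 and 9.83 in anisomycin ears and 9.99, 10.10 and 9.60 in imiquimod ears, against 11.80, 12.23 and 11.59 in vehicle ears. It was 4.62-fold lower with anisomycin and 3.95-fold lower with imiquimod. Casq1, which stores calcium in the sarcoplasmic reticulum, changed by -2.24 and -2.33. The release channel Ryr1 changed by -1.84 with anisomycin and -1.85 with imiquimod, and its voltage sensor Cacna1s by -1.57 and -1.47. For all 5 genes the treated arrays lay below every vehicle array and the treated groups overlapped each other.

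Energy supply genes all fell as well, 6 of 6 with each treatment, with medians of -1.25 for anisomycin and -1.45 for imiquimod. Muscle creatine kinase, Ckm, which buffers ATP, read 8.50, 8.65 and 8.76 in anisomycin ears and 8.86, 9.02 and 8.39 in imiquimod ears, against 10.47, 10.90 and 10.24 in vehicle ears. It was 3.74-fold lower with anisomycin (adjusted p = 3.55e-05) and 3.43-fold lower with imiquimod (adjusted p = 6.96e-05). Muscle glycogen phosphorylase, Pygm, changed by -1.83 and -2.0, and the muscle enolase Eno3 by -0.98 and -1.26. Myoglobin, Mb, which stores oxygen, changed by -1.34 with each treatment. The muscle subunits of cytochrome oxidase gave -1.10 and -1.34 for Cox6a2 and -1.17 and -1.56 for Cox8b.

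**Figure D2:**
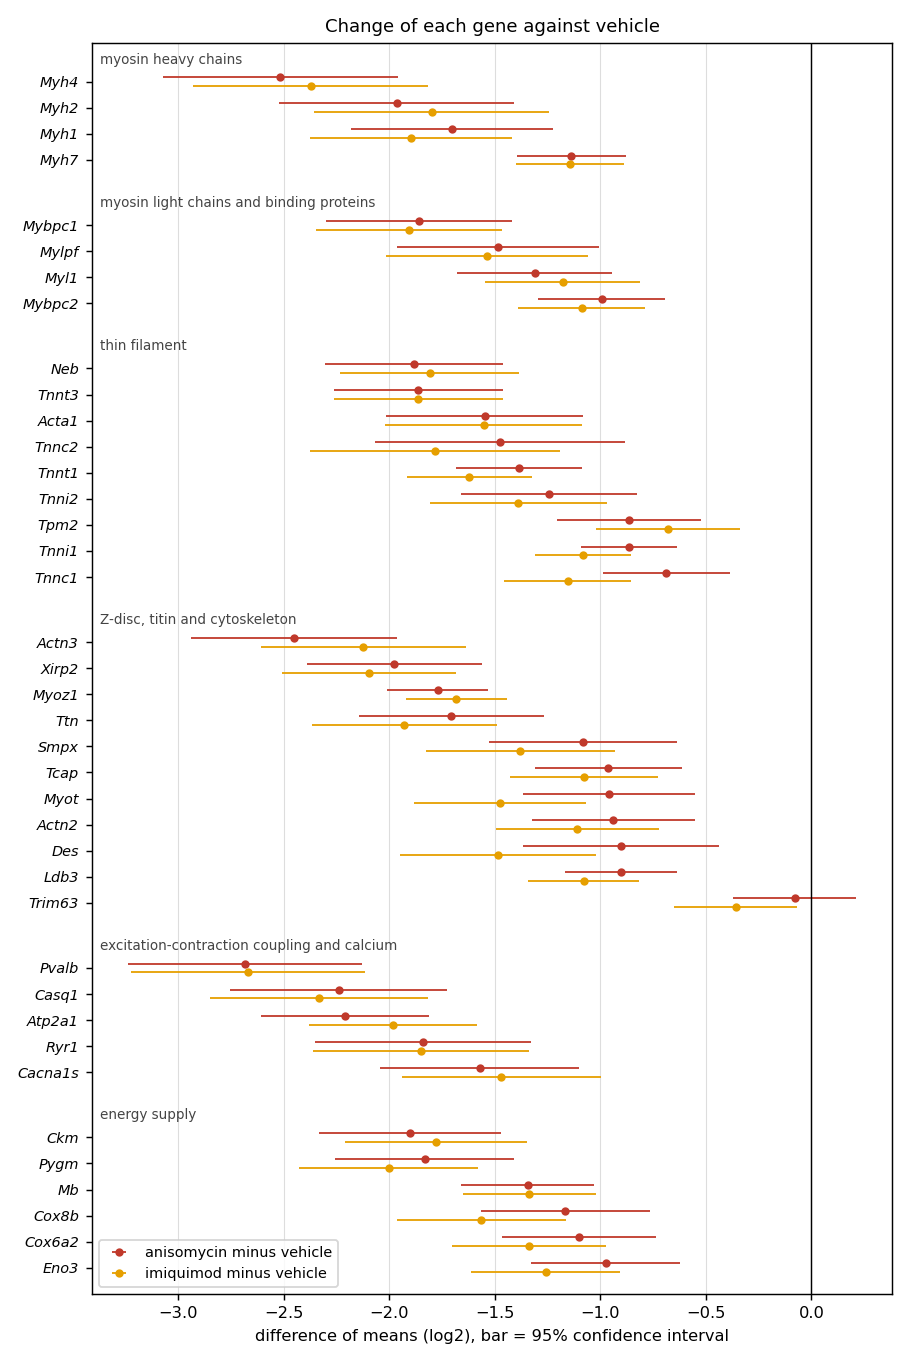
Difference of group means from vehicle (log2, horizontal axis) for each gene, for anisomycin and for imiquimod, with 95% confidence intervals from limma. Every interval lies below 0 except that of Trim63 with anisomycin, which runs from -0.37 to 0.21. Both differences of a gene use the same vehicle arrays.

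Genes of fast fibres numbered 14 in the list and those of slow fibres 4, Myh7, Tnnt1, Tnni1 and Tnnc1. All of them fell with each treatment. The median change of the fast genes was -1.82 with anisomycin and -1.83 with imiquimod, and that of the slow genes was -1.0 and -1.15. Single genes overlapped. With anisomycin, fast genes ran from -2.68 to -0.99 and slow genes from -1.39 to -0.69. With imiquimod, fast genes ran from -2.67 to -1.09 and slow genes from -1.62 to -1.08. Mybpc1, also slow-type, was not counted among the slow genes, and its changes of -1.86 and -1.90 lay near the median of the fast genes. Within an array, the mean log2 level of the slow genes minus that of the fast genes was -1.08, -1.14 and -1.24 in anisomycin ears and -1.37, -1.55 and -1.28 in imiquimod ears, against -1.90, -2.20 and -1.86 in vehicle ears. The 3 groups did not overlap, with the smallest gap in anisomycin ears and the widest in vehicle ears. Group means were -1.15 ± 0.08 for anisomycin, -1.40 ± 0.13 for imiquimod and -1.98 ± 0.19 for vehicle (SD, n = 3 each). Because probe sets differ in brightness, such a gap has meaning only as it shifts between arrays, and the shift is given as a description. Within each group the gap was widest in the array with the highest mean of the listed genes and smallest in that with the lowest. The part of the muscle level of an array, and of dim probe sets, in this shift was not tested.

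Between the treatments, few of the genes could be told apart. With anisomycin against imiquimod, 1 of the 39 genes was called higher and 0 lower, where 20.4% of all genes were called either way, 10.8% higher and 9.59% lower. At an unadjusted p under 0.05, 3 of the 39 genes passed, where at least the 20.4% of all genes called after adjustment passed as well. The median difference was 0.09 on the log2 scale, beside 0.01 for all genes, with 26 genes above 0 and 13 below it. The 95% interval of the difference included 0 for 36 of 39 genes, and the interval bounds ran from -0.82 to 1.05, so differences of this size are not excluded for single genes. Arrays of the treatments did not overlap for 8 genes, beside 39.3% of all genes.

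Tnnc1 was the gene called, 0.47 higher with anisomycin (SE 0.13, 95% interval 0.17 to 0.77, adjusted p = 0.0368). The call was lost in 7 of 21 other settings. It ended without anisomycin replicate 1, 2 or 3 (adjusted p = 0.109, 0.0935 and 0.0625), without imiquimod replicate 1, 2 or 3 (0.0789, 0.0612 and 0.130), and when all rows were tested (0.0617). Desmin, at 0.58 (adjusted p = 0.0797), and myotilin, at 0.52 (adjusted p = 0.0760), had intervals above 0 and missed the threshold. Myotilin read 8.56, 8.56 and 8.53 in anisomycin ears, against 8.14, 8.34 and 7.62 in imiquimod ears, and these arrays did not overlap. Both genes passed without imiquimod replicate 2 (adjusted p = 0.0447 for Des and 0.0468 for Myot) and without vehicle replicate 2 (0.0459 and 0.0488), and also with array weights, with the replicate number as a block and with vehicle replicate 2 and imiquimod replicate 3 both left out. The genes farthest below the median were Actn3 at -0.33 (95% interval -0.82 to 0.16, adjusted p = 0.352), Atp2a1 at -0.23 and Tpm2 at -0.19. Without imiquimod replicate 3 the median difference turned to -0.06.

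**Figure D3:**
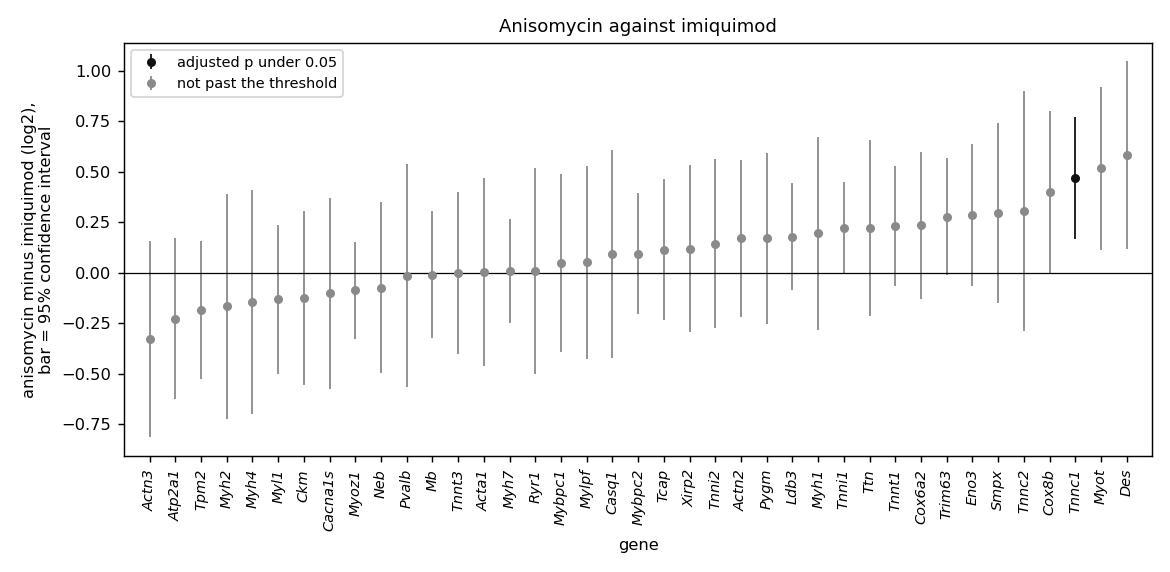
Anisomycin minus imiquimod (log2, vertical axis) for each of the 39 genes, ordered by size, with 95% confidence intervals from limma. Tnnc1, in black, is the gene with an adjusted p under 0.05, and 36 of the 39 intervals include 0.

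Single arrays moved the whole list. The mean log2 level of the 39 genes was 7.67, 7.70 and 7.81 in anisomycin ears and 7.72, 7.83 and 7.34 in imiquimod ears, against 9.05, 9.56 and 8.98 in vehicle ears. Vehicle replicate 2 was the highest vehicle array for 38 of the 39 genes, with Myh7 the exception. Imiquimod replicate 3 was the lowest imiquimod array for 37 of 39, and anisomycin replicate 3 the highest of its group for 28. The median SD of a listed gene between arrays was 0.12 with anisomycin, 0.29 with imiquimod and 0.33 with vehicle, beside 0.08, 0.06 and 0.10 for all genes. Without vehicle replicate 2 the median change was -1.23 for anisomycin and -1.35 for imiquimod. With vehicle replicate 2 and imiquimod replicate 3 both left out, a setting chosen after seeing the data, 38 genes were still called lower with each treatment, with medians of -1.23 and -1.15.

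**Figure D4:**
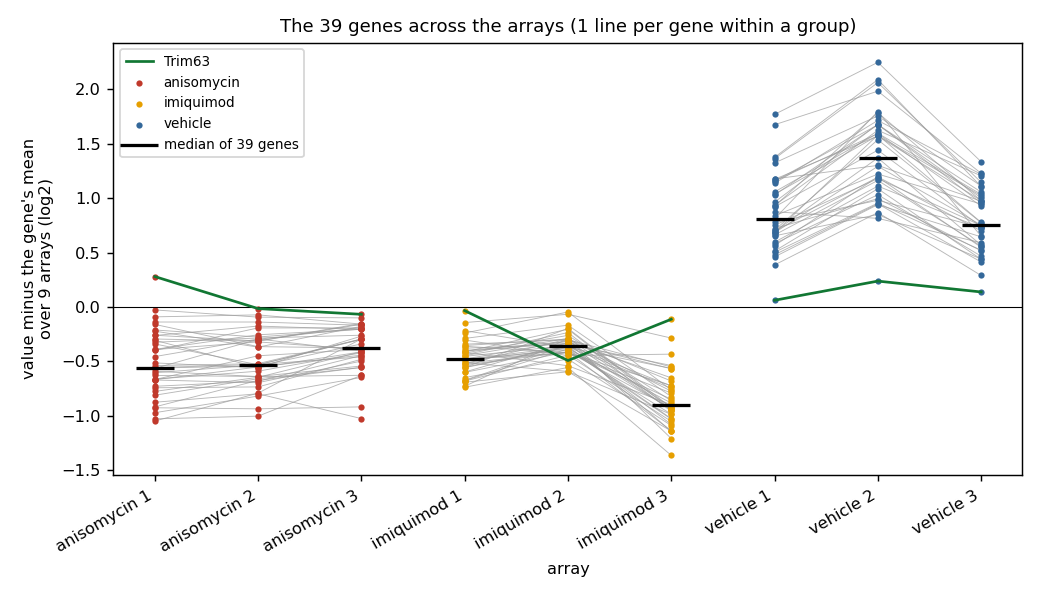
Value of each of the 39 genes minus its mean over the 9 arrays (log2, vertical axis) in each array, with lines joining a gene within a group and bars at the median gene. Vehicle replicate 2 lies above the other vehicle arrays and imiquimod replicate 3 below the other imiquimod arrays for nearly all genes, and the Trim63 line departs from the rest.

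The genes moved together across arrays. Over the 9 arrays, the correlation of a gene with the mean of the other listed genes had a median of 0.99, and the lowest values were 0.45 for Trim63 and 0.93 for Des. These points fall into vehicle and treated arrays, so the values mostly read the gap between them and are given as a description. Taken as deviations from the group means, the median was 0.94, with -0.18 for Trim63 and 0.51 for Myh7. Outside the list, 15 genes were most like the mean of the listed genes, chosen by Pearson correlation over the 9 arrays among 3610 genes with a range of at least 1. In falling order, from 0.9996 to 0.991, they were Rtn2, Pfkm, Srl, Cmya5, Ankrd23, Col1a1, Mir568, Txlnb, Lrtm1, Coro6, Nrap, Mef2c, Coq8a, Myom2 and Ak1. Pfkm is the muscle phosphofructokinase, Srl the calcium-binding sarcalumenin, Nrap and Myom2 sarcomere proteins, and Col1a1 the main collagen of the dermis. By Spearman correlation, 7 of the 15 remained in the list of that length.

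Most muscle genes outside the list were lower too. Of 56 further genes of the sarcomere, excitation-contraction coupling and muscle metabolism, 42 were lower and 5 higher with anisomycin (median -0.75). With imiquimod 44 were lower and 1 higher (median -0.88). The shares of all genes were 23.3% lower and 22.3% higher with anisomycin, and 22.4% and 20.4% with imiquimod. The ryanodine receptor partner triadin, Trdn, changed by -2.15 and -2.08, Nrap by -2.0 and -1.95 and the actin cap gene Tmod4 by -1.72 and -2.14, with anisomycin and imiquimod in that order. The slow light chain Myl2 changed by -1.38 and -1.36, and dystrophin, Dmd, by -1.12 and -1.27. Higher with anisomycin were Tpm3 (0.68), Ankrd2 (0.67), Pdlim7 (0.59), Xirp1 (0.55) and Casq2 (0.34). Of these Tpm3, a tropomyosin that cells outside muscle also make, was higher with imiquimod too (0.59). The Ankrd2 call (adjusted p = 0.0329) ended without anisomycin replicate 1 or 2 (0.112 and 0.0775), without imiquimod replicate 1 (0.0504) and without vehicle replicate 1 or 2 (0.107 and 0.0675).

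Between the treatments, 10 of these 56 genes were higher with anisomycin and 0 lower, where 10.8% of all genes were called higher and 9.59% lower. The actin-binding repeat gene Xirp1 differed by 0.91 (adjusted p = 0.000849), the tropomyosin gene Tpm1 by 0.90 (adjusted p = 0.00207) and the cardiac-type calsequestrin Casq2 by 0.51 (adjusted p = 0.00152), and these 3 calls held in every setting run, 21 for Xirp1 and Tpm1 and 20 for Casq2. The other 7 were Tmod4, Pdlim7, Cryab, Ankrd2, Mylk2, Ampd1 and Ppp1r3a, and the call of each was lost in at least 1 setting. Against vehicle, Xirp1 changed by 0.55 with anisomycin and by -0.36 with imiquimod (adjusted p = 0.0239). That imiquimod call ended without imiquimod replicate 1, 2 or 3 (adjusted p = 0.0597, 0.0512 and 0.0761) and without vehicle replicate 2 or 3 (0.0789 and 0.0688), and with vehicle replicate 2 and imiquimod replicate 3 both left out (0.182).

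Regulators of muscle gene expression had medians closer to 0 than the list. Of 12 measured, 5 were lower and 1 higher with anisomycin (median -0.07), and 6 lower and 1 higher with imiquimod (median -0.36). Of all genes, 23.3% were called lower and 22.3% higher with anisomycin, and 22.4% lower and 20.4% higher with imiquimod. Mef2c, a transcription factor of muscle, changed by -1.20 and -1.42, and myostatin, Mstn, the growth inhibitor that fibres secrete, by -1.50 and -1.42. Myf6, the myogenic factor of mature fibres, changed by -0.58 and -0.89. Serum response factor, Srf, which is made in most cells, was higher with both treatments (1.19 and 0.62). The satellite cell factor Pax7 was at -0.07 (adjusted p = 0.607) and -0.06 (adjusted p = 0.681), with anisomycin and imiquimod in that order. Myod1, the factor of activated muscle precursors, was at -0.07 with anisomycin (adjusted p = 0.615) and fell by 0.61 with imiquimod (adjusted p = 0.000681). The treatments differed for it, by 0.54 (adjusted p = 0.00477).

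Embryonic and regeneration isoforms were not called higher. Of 7 genes, 5 were lower and 0 higher with each treatment, with medians of -0.73 and -0.88. Beside them, 23.3% of all genes were called lower and 22.3% higher with anisomycin, and 22.4% and 20.4% with imiquimod. Embryonic myosin, Myh3, changed by -1.80 with anisomycin and -1.66 with imiquimod, and cardiac actin, Actc1, by -1.30 and -1.36. Whether their probe sets share signal with the adult myosins or with other actins was not tested. Perinatal myosin, Myh8, was at -0.21 and -0.26, and the fetal receptor subunit Chrng at 0.15 and 0.10, and neither was called.

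Atrophy genes had medians near 0. Of 10 measured, 4 were lower and 4 higher with anisomycin (median 0.00), and 4 lower and 2 higher with imiquimod (median -0.05). The shares of all genes were again 23.3% lower and 22.3% higher with anisomycin, and 22.4% and 20.4% with imiquimod. Fbxo32, the other muscle ubiquitin ligase of atrophy beside Trim63, fell by 1.13 with anisomycin (adjusted p = 5.22e-06) and by 1.05 with imiquimod (adjusted p = 1.18e-05). Klf15, a metabolic regulator of muscle, changed by -0.74 with each treatment. Cathepsin L, Ctsl, which macrophages and keratinocytes also make, rose by 1.75 and 0.55. Foxo1, an activator of both ubiquitin ligase genes, was at -0.04 with anisomycin and fell by 0.57 with imiquimod.

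Genes of the neuromuscular junction were called lower in 6 of 10 cases with anisomycin and 7 of 10 with imiquimod. Their medians were -0.25 and -0.46. Among all genes, 23.3% were called lower and 22.3% higher with anisomycin, and 22.4% and 20.4% with imiquimod. The anisomycin calls of Chrna1, Colq and Dok7 and the imiquimod calls of Chrnb1, Chrnd and Rapsn were lost in at least 1 setting. Runx1, which inflamed skin and denervated muscle express, was higher with both (1.21 and 0.37), and its imiquimod call (adjusted p = 0.0281) ended without imiquimod replicate 1 or 3 (0.0819 and 0.0914) and without vehicle replicate 1 or 3 (0.0949 and 0.0655). That call also ended under repeated quantile normalization (0.113), cyclic loess (0.166) and centring on genes of stable rank (0.0697), and with vehicle replicate 2 and imiquimod replicate 3 both left out (0.0794). The adult acetylcholine receptor subunit Chrne changed by -0.84 and -1.07, its clustering kinase Musk by -0.63 and -1.02, and the agrin receptor Lrp4, which other cells make too, by -2.15 and -1.08. Chrna1, the receptor subunit that rises in denervated muscle, fell with both, by 0.46 (adjusted p = 0.0250) and 0.80 (adjusted p = 0.00147). The anisomycin call of Chrna1 ended without anisomycin replicate 1 or 3 (adjusted p = 0.0618 and 0.0851) and without vehicle replicate 2 (0.0822). It also ended with array weights (-0.24, adjusted p = 0.171), under cyclic loess (0.0597) and with vehicle replicate 2 and imiquimod replicate 3 both left out (0.0615).

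Markers of other cells moved in the same arrays, and their part in the results above was not tested. The counts below stand beside the same shares of all genes, 23.3% lower and 22.3% higher with anisomycin and 22.4% and 20.4% with imiquimod. Of 9 adipocyte markers, 9 fell with each treatment (medians -1.46 and -1.13), among them Retn at -2.32 and -1.70, and their mean log2 level was 6.75 to 7.01 in anisomycin ears and 7.22 to 7.35 in imiquimod ears, against 8.11 to 8.69 in vehicle ears. Of 10 cartilage markers, 7 fell and Sox9 rose (0.96) with anisomycin and 8 fell with imiquimod, with levels of 6.85 to 7.05 and 6.85 to 6.93, against 7.61 to 7.88. Of 8 fibroblast markers, 6 fell and Pdgfra rose (0.68) with anisomycin and 6 fell with imiquimod, with levels of 9.82 to 9.90 and 9.68 to 9.81, against 10.48 to 10.63. For these 3 lists the levels of treated and vehicle ears did not overlap. The same held for Schwann cell markers, lower in treated ears, and for neutrophil, macrophage and cardiac markers, higher in treated ears. The 5 Schwann cell markers gave 4 lower with anisomycin and 5 with imiquimod. Neutrophil markers rose in 8 of 8 cases with each treatment (medians 4.86 and 4.32), and macrophage markers in 7 of 8 (1.31 and 0.89). Smooth muscle markers gave 4 higher and 2 lower of 10 with anisomycin (median -0.01) and 3 lower with imiquimod (median -0.14). Cardiac markers gave 1 higher and 1 lower of 7 with each treatment, Nppb at 3.79 and 1.79 and Tnni3 at -0.58 and -0.47. Endothelial markers gave 3 lower and 1 higher of 8 with anisomycin (median -0.01) and 5 lower with imiquimod (median -0.48). Keratinocyte markers gave 2 lower and 2 higher of 7 with anisomycin (median 0.14) and 1 lower and 3 higher with imiquimod (median -0.03).

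The array that stood high for muscle also stood apart for some other cells. Vehicle replicate 2 was the highest vehicle array for 9 of 9 adipocyte, 8 of 8 endothelial and 5 of 5 Schwann cell markers. For 7 of 7 keratinocyte markers it was the lowest. It was the highest for 8 of 10 smooth muscle, 7 of 10 cartilage and 4 of 8 fibroblast markers. For cardiac markers this was 2 of 7, and for neutrophil and macrophage markers 2 of 8 each. Among all genes, 35.1% were highest and 38.1% lowest in this array. Imiquimod replicate 3 was the lowest imiquimod array for 1 of 9 adipocyte, 4 of 10 cartilage, 5 of 8 fibroblast, 5 of 7 cardiac and 0 of 5 Schwann cell markers. It was the lowest for 37 of the 39 muscle genes and 26 of 29 further sarcomere genes, beside 26.4% of all genes.

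**Figure D5:**
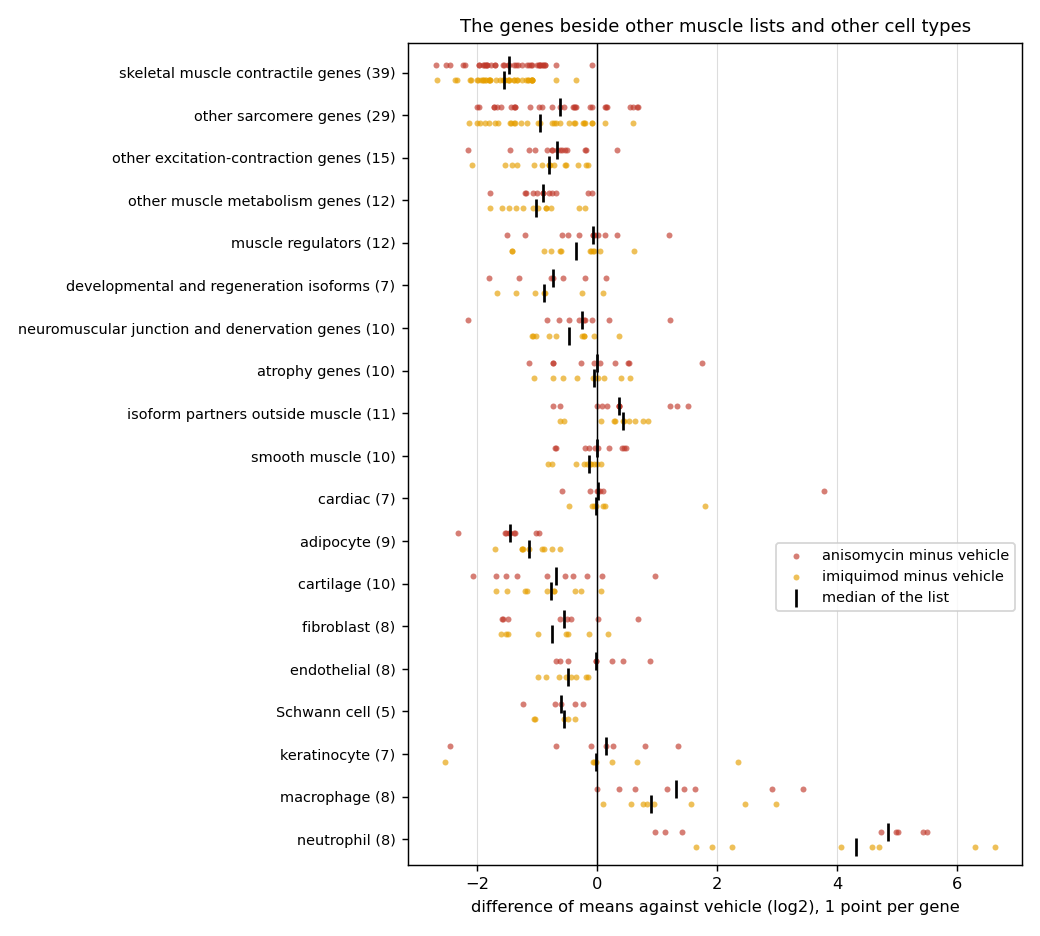
Difference from vehicle (log2, horizontal axis) of each gene of the 39 and of the other muscle and cell type lists, 1 point per gene, with list sizes in brackets and black bars at the list medians. The 39 genes have medians of -1.48 for anisomycin and -1.55 for imiquimod, beside -1.46 and -1.13 for adipocyte markers and 4.86 and 4.32 for neutrophil markers.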

How the data were processed

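The authors deposited 1 table of log2 expression values for 9 arrays, made with RMA per the submitters' processing notes; RMA corrects background, normalizes by quantiles and summarises probes. Its version, the genome build and joint normalization of all arrays are not given in the sources used here. A log2 scale was judged from the range of 2.39 to 13.97. Of 35556 rows, 21789 carried 1 symbol by the platform annotation, 1621 several and 12146 none listed. Entrez identifiers of 21698 rows matched a RefSeq gene table and changed 0 symbols. The probe set with the highest mean was kept for 999 genes with several, which left 19938 genes, with no filter on dim genes. The limma fit (version 3.58.1, R 4.3.3) had 1 mean per group over all 9 arrays, 6 residual and 3.16 prior degrees of freedom, and two-sided contrasts. Calls were made at a Benjamini-Hochberg adjusted p under 0.05 over all 19938 genes. The fit was also run on simulated data in which genes varied independently, which does not test calls on genes that move together. The smallest p of an exact permutation test of 3 against 3 is 0.1, and precision is limited by the number of arrays. The listed genes and the other lists were chosen with earlier results of these data known, so no list was tested and counts and medians are descriptions. Named genes are all listed genes, genes of the other muscle lists, up to 2 markers with the largest changes of each cell type list, and the 15 most like genes. Examples from the muscle lists, Sox9, Pdgfra and Krt5 were chosen after their values were seen. Promoter windows came from the RefSeq table for GRCm38.p6, with Python 3.11.15. Alternatives were another variance prior, a filter on the dimmest 30%, other normalizations and centrings, probe set means, all rows, array weights, a replicate block, only the compared groups and leaving out each array, with 1 more setting chosen after seeing the data.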

Additional observations from a re-analysis of the deposited data

How the results depend on the processing

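Over 21 alternative settings, 38 genes were lower with anisomycin in every setting and 38 to 39 with imiquimod, and 0 were higher with either. Median changes ranged from -1.605 to -1.23 for anisomycin and from -1.67 to -1.15 for imiquimod, where -1.15 came from leaving out both vehicle replicate 2 and imiquimod replicate 3. Leaving out 1 array at a time gave -1.605 to -1.23 and -1.67 to -1.35. Between the treatments, the number of genes higher with anisomycin was 0 when all rows were tested, 6 with array weights, 3 with the replicate number as a block, 3 with both arrays left out and 0 to 3 with 1 array left out. The number lower was 1 with array weights and 2 with both arrays left out. Its median ranged from -0.06 to 0.17. Of the other genes named or listed, the keratinocyte gene Krt5 turned to -0.017 with imiquimod under cyclic loess and to 0.084 under repeated quantile normalization (adjusted p = 0.281), against 0.25 as deposited. The cause of these changes was not tested. Same-numbered arrays did not deviate together (correlations from -0.20 to 0.20 over 9 pairs, and from -0.24 to 0.25 over 18 pairs of different numbers), so the block, which also ended the imiquimod call of Trim63 (adjusted p = 0.0569), rests on numbers alone. Centring on 1000 genes of stable rank moved the share of calls that were higher to 37.1% for anisomycin and 36.4% for imiquimod, against 49.0% and 47.7% as deposited, with all-gene medians of -0.09 and -0.10, and centring on array medians moved it to 56.4% and 54.7%. Among 186 genes of the other lists, calls were lost in at least 1 setting for 15 with anisomycin, 13 with imiquimod and 21 between the treatments, and gained for 17, 15 and 52. Signal over background was not tested, and probe sets near it have understated changes. With 3 arrays a group, intervals of single genes between the treatments stay wide.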

Other observations

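Genes of partner isoforms of the listed proteins had medians above 0. Cells outside muscle make these isoforms, though for some, such as Atp2a2, not they alone. Of 11 measured, 6 were higher and 2 lower with anisomycin (median 0.36), where 22.3% of all genes were called higher and 23.3% lower. With imiquimod 8 were higher and 2 lower (median 0.43), where 20.4% of all genes were called higher and 22.4% lower. The imiquimod calls of Atp2a2, Actn4 and Actb and the anisomycin call of Atp2a2 were lost in at least 1 setting. The non-muscle alpha-actinin Actn1 rose by 1.52 with anisomycin and by 0.53 with imiquimod, while its muscle relatives Actn2 and Actn3 fell. Non-muscle myosin, Myh9, rose by 1.21 and 0.76 and the tropomyosin gene Tpm4 by 1.33 and 0.85, and for these 3 genes the rise was larger with anisomycin (differences of 0.99, 0.45 and 0.48, limma adjusted p at most 0.00159). The brain-type creatine kinase Ckb and glycogen phosphorylase Pygb fell with their muscle relatives, Ckb by 0.62 with each treatment and Pygb by 0.74 and 0.55. Cytochrome oxidase subunits of other tissues, Cox6a1 and Cox8a, rose by 0.63 and 0.45 with imiquimod (adjusted p = 0.000241 and 0.000449), and had values of 0.08 and 0.16 with anisomycin that did not pass.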
